A study of Homo sapiens with 12 samples.

Results

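The small heat shock proteins HSPB1, HSPB8 and CRYAB and 6 stress co-factors (BAG3, CLU, ZFAND2A, CHORDC1, AHSA1 and STIP1) were followed through 2 RNA sequencing experiments in lung cancer cell lines. They were 9 of the 16426 genes present in both expression tables and were found there by gene symbol. The genes were selected on their measured FPKM values in these same libraries. Which comparison weighed in the choice is not recorded, so both tables are treated as used, and the changes below describe them and are not independent evidence that these genes respond. RNA was sequenced in 12 libraries of NCI-H1975 and HCC827, established human lines from non-small cell lung cancers with activating EGFR mutations. The first experiment exposed both lines to 18E, a compound known here only by its code name, at 2.5 µM and at 5 µM for 24 h, beside DMSO as the control. The second treated both lines for 48 h with siDYN-1 or siDYN-2, a pair of siRNAs, beside the control siRNA siCON. No time is given for DMSO or siCON. LIC1, named in the title of the series, is DYNC1LI1, a light intermediate chain of the motor dynein, which in the siDYN libraries was 7.49% to 21.5% of the siCON level of the same line.

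Small heat shock proteins hold unfolding proteins without using ATP and pass them on to the ATP-driven chaperones. HSPB8 works as a partner of BAG3, which hands clients of the HSP70 machine to autophagy, and AHSA1, STIP1 and CHORDC1 are co-chaperones that act on HSP90. Many of these genes are targets of heat shock factor HSF1, which binds the heat shock element, an array of inverted GAA units in promoters. Clusterin (CLU) is a chaperone that cells secrete, and ZFAND2A (AIRAP), known from arsenite-treated cells, associates with the proteasome.

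Promoter sequence is shown first because it is not among the FPKM values on which the 9 genes were selected. The 9 genes and the large chaperones below were nevertheless grouped as stress genes, and many of the 9 are HSF1 targets. Their share of matches is therefore a description and not independent evidence. RefSeq promoter windows on GRCh38.p14 (250 bases before to 50 after a transcript start) were held for 7 of the 9 genes, with 2 starts each for STIP1 and AHSA1, and CRYAB and CLU had none. Each window was searched on both strands for a pair of units 2 bases apart, GAANNTTC or TTCNNGAA, and for a run of 3 units, GAANNTTCNNGAA or TTCNNGAANNTTC, each of which contains pairs. Of 35116 windows of this length, 13.5% held a pair and 0.490% held a run of 3. The 250 bases before the start are given here 5′ to 3′ on the strand of the gene for the 4 genes with a match before the start, and for BAG3, which had no match, with the matching letters in capitals.
CHORDC1 (chr11:90223050-90223299, minus strand): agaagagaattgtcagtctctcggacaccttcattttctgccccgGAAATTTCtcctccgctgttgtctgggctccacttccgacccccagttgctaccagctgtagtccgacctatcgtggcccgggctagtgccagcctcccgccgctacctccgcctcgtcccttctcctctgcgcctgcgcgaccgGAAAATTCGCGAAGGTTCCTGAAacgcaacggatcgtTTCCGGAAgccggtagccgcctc
HSPB8 (chr12:119178681-119178930, plus strand): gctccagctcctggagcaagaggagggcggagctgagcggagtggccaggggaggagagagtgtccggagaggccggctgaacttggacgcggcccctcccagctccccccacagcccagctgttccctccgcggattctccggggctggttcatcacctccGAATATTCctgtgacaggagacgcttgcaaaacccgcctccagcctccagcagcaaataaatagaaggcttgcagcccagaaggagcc
HSPB1 (chr7:76302423-76302672, plus strand): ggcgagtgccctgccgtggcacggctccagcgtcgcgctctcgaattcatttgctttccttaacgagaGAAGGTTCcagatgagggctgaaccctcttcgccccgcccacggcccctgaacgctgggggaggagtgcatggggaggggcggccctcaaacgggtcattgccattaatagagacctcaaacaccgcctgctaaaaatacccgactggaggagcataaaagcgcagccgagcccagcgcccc
ZFAND2A (chr7:1160197-1160446, minus strand): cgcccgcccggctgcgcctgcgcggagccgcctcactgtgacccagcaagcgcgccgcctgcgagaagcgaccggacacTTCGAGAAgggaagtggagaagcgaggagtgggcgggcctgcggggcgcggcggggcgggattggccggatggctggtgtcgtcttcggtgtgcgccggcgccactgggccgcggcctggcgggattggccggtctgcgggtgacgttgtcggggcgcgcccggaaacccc
BAG3 (chr10:119651130-119651379, plus strand): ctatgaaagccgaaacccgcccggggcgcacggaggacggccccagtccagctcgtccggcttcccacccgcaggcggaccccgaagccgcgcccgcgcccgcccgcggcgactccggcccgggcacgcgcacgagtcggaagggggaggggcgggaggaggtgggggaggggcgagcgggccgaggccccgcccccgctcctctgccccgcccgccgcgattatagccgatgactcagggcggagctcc

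CHORDC1 held the densest match. Its 23-base run of alternating units, GAAAATTCGCGAAGGTTCCTGAA, spanned -60 to -38 (chr11:90223087-90223109, counting the first transcribed base as 0), and single pairs lay at -205 and -23. HSPB8 held a pair at -88 and another, GAAGTTTC, at 4 bases after the start. HSPB1 held 1 pair at -182 and ZFAND2A 1 pair at -171. The only match in STIP1 was TTCCAGAA at 13 bases after its second start. Thus 5 of the 7 genes with a window held a pair and 1 a run of 3, or counted as above, 5 of 9 windows a pair, and no match was present in the windows of BAG3 or AHSA1. Among 16 large chaperones of the heat shock response (HSP70, HSP90, HSP40 and HSP60 genes and relatives), 13 held a pair and 7 a run of 3 (14 of 26 windows a pair). Of the other lists, a pair was present in 4 of 17 other HSP90 co-chaperones, 2 of 5 other small heat shock proteins, 1 of 4 other BAG genes, 0 of 5 other ZFAND genes, 0 of 4 heat shock factors and HSBP1, 2 of 7 autophagy partners of BAG3 (both with a run of 3) and 1 of 5 extracellular chaperones and clusterin receptors. GENCODE 29 places the outer ends of HSPB1, HSPB8, BAG3, ZFAND2A and CHORDC1 upstream of these RefSeq starts, and those of AHSA1 and STIP1 upstream of their second start, so these windows lie in part or whole within its gene models. A match is a string of letters and does not show that a factor binds there. Only exact letters within these windows were searched, so the lack of a match does not show that a gene has no heat shock element.

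**Figure D1:**
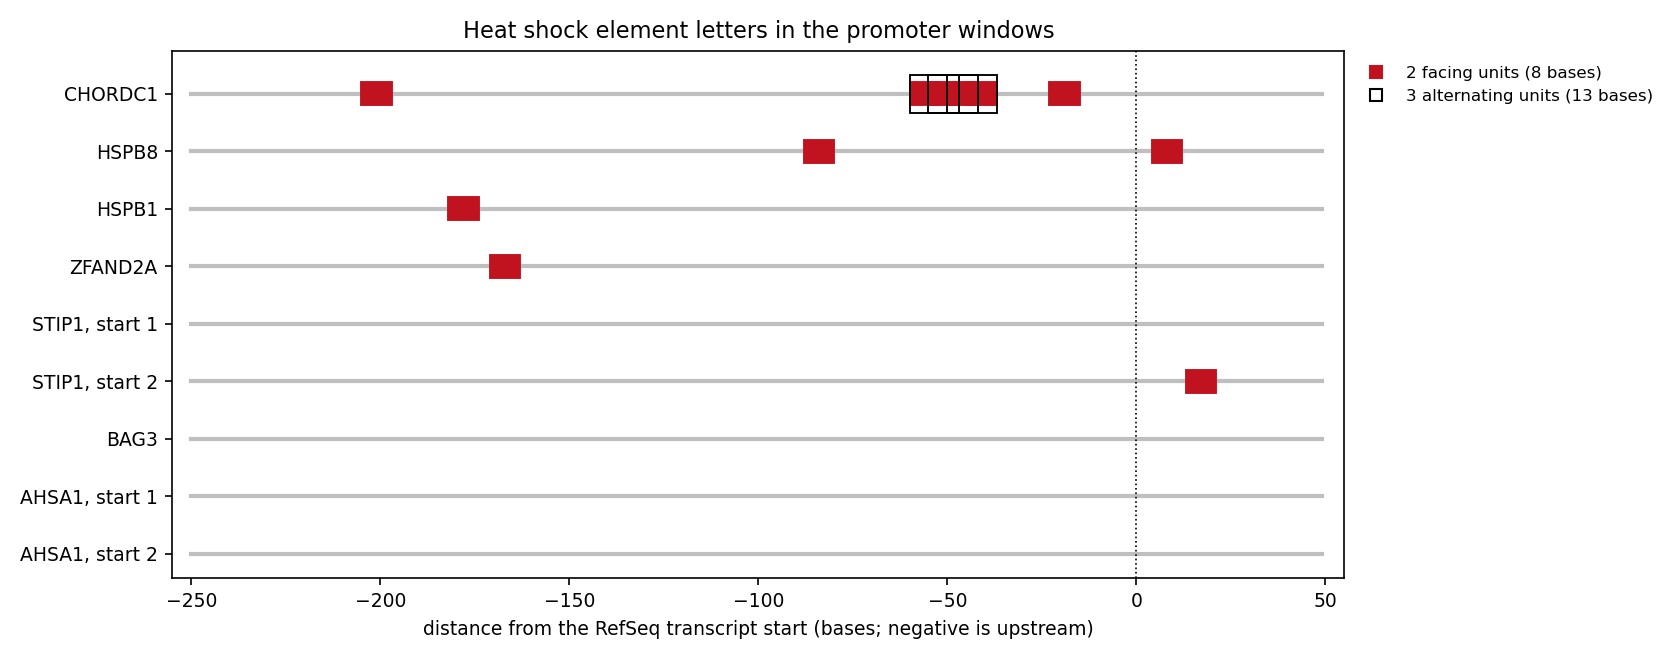
Matches to the heat shock element letters in the 9 promoter windows of 7 genes, by distance in bases from the RefSeq transcript start (dotted line). Filled boxes are pairs of facing units and open boxes runs of 3 alternating units; runs of 3 appear in CHORDC1 alone among these genes, and BAG3, AHSA1 and the first start of STIP1 have no box.

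Values are FPKM, a level normalized for transcript length and for the number of fragments sequenced, so levels are per length and can be compared between genes, and every change is a difference of log2(FPKM + 1) from the control of the same line and table. This scale understates changes of low genes. There was 1 library per line and treatment, read totals are not known, and NCI-H1975 and HCC827 stood as the 2 replicates of a treatment. Nothing in the labels says that a line was cultured more than once, so p-values measure the spread between these libraries only. FPKM totals ran from 486409 to 685680 and genes listed at 0 from 534 to 2212 per library. The 5 epithelial markers EPCAM, CDH1, KRT8, KRT18 and KRT19 were at 27.5 to 3014 FPKM and the lung factor NKX2-1 at 7.14 to 44.7 FPKM. Endothelial markers reached at most 1.47 FPKM, stromal markers 2.27, the muscle markers MYH7, DES and MYL2 0.33, and blood markers 10.7 (CD14). The lens marker CRYGD had no usable value here.

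In the control libraries the 9 genes ranged from abundant to listed at 0. HSPB1 was the most abundant of them in every control, at 1323 FPKM (DMSO) and 1734 FPKM (siCON) in NCI-H1975 and at 547 and 724 FPKM in HCC827. STIP1 and AHSA1 followed at 137 to 298 FPKM, and BAG3, ZFAND2A and CHORDC1 lay between 20.9 and 77.4 FPKM. HSPB8 was at 5.67 to 10.8 FPKM, CLU at 3.20 to 15.1 FPKM, and CRYAB at 0 to 0.50 FPKM. The lines differed in these baselines, with 1 library behind each value and no test. The log2 level of HSPB1 in NCI-H1975 exceeded that in HCC827 by 1.27 (DMSO) and 1.26 (siCON), that of CLU by 1.18 and 1.90, and that of AHSA1 by 0.99 and 1.09. BAG3 and ZFAND2A were also higher in NCI-H1975 in both tables, while STIP1 was lower there, by differences of -0.66 and -0.47. CHORDC1 and HSPB8 differed between the lines in opposite directions in the 2 tables.

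At 5 µM 18E all 9 genes were higher than DMSO in both lines, and 4 of them (HSPB8, CRYAB, CLU and ZFAND2A) were at least 2-fold higher in both. CRYAB passed the filter on low values only through its 5 µM libraries, so its counts here follow from the filter, and without it 3 of 8 genes were at least 2-fold higher. Of the 11953 genes tested, 1.07% passed 2-fold upward in both lines and 25.5% were higher in both. In HCC827 all 9 were at least 2-fold higher, where 7.4% of all genes were, and in NCI-H1975 4 were, where 1.78% of all genes were. The median fitted change of the 8 genes other than CRYAB was 1.99 on the log2 scale (2.32 with CRYAB) against -0.09 over all tested genes. In limma with line as a block, 0 of 9 passed an adjusted p under 0.05 (Benjamini-Hochberg over all genes, adjusted p from 0.1005 to 0.180), against 0.00837% of all genes. All 8 genes other than CRYAB had an unadjusted p under 0.05, against 26.8% of all genes. The calls changed when 1 library was left out, but the group of that library then holds 1 library and shows no spread. Those fits are therefore given by size only. The sizes rested on single libraries too. Without the HCC827 5 µM library the fitted changes ran from 0.22 (AHSA1 and STIP1) to 2.78 (ZFAND2A), with BAG3 at 0.89. Without the NCI-H1975 5 µM library they ran from 1.08 (AHSA1) to 4.98 (CLU). CLU was 1.63 without the HCC827 DMSO library and 5.47 without that of NCI-H1975. In bulk RNA of a whole culture, more RNA per cell and more cells with RNA cannot be told apart.

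At 2.5 µM 2 of 9, HSPB8 and CLU, exceeded DMSO at least 2-fold in both lines (0.251% of all genes). In NCI-H1975 these 2 were the only ones past 2-fold (0.678% of all genes), and in HCC827 ZFAND2A was the third (3 of 9, and 1.24% of all genes). With FPKM scaled to equal library totals HSPB8 alone remained past 2-fold. BAG3 and ZFAND2A were also higher in both lines, making 4 of 9 (32.2% of all genes), and AHSA1 and STIP1 were lower in both. In limma at 2.5 µM 0 of 9 passed (adjusted p from 0.915 to 0.994), against 0% of all genes. Unadjusted p was under 0.05 for CLU and HSPB8, against 5.26% of all genes. With 1 library left out, given by size only as above, the fitted change of HSPB8 ran from 0.88 to 1.95 and that of CLU from 0.75 to 4.59.

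**Figure D2:**
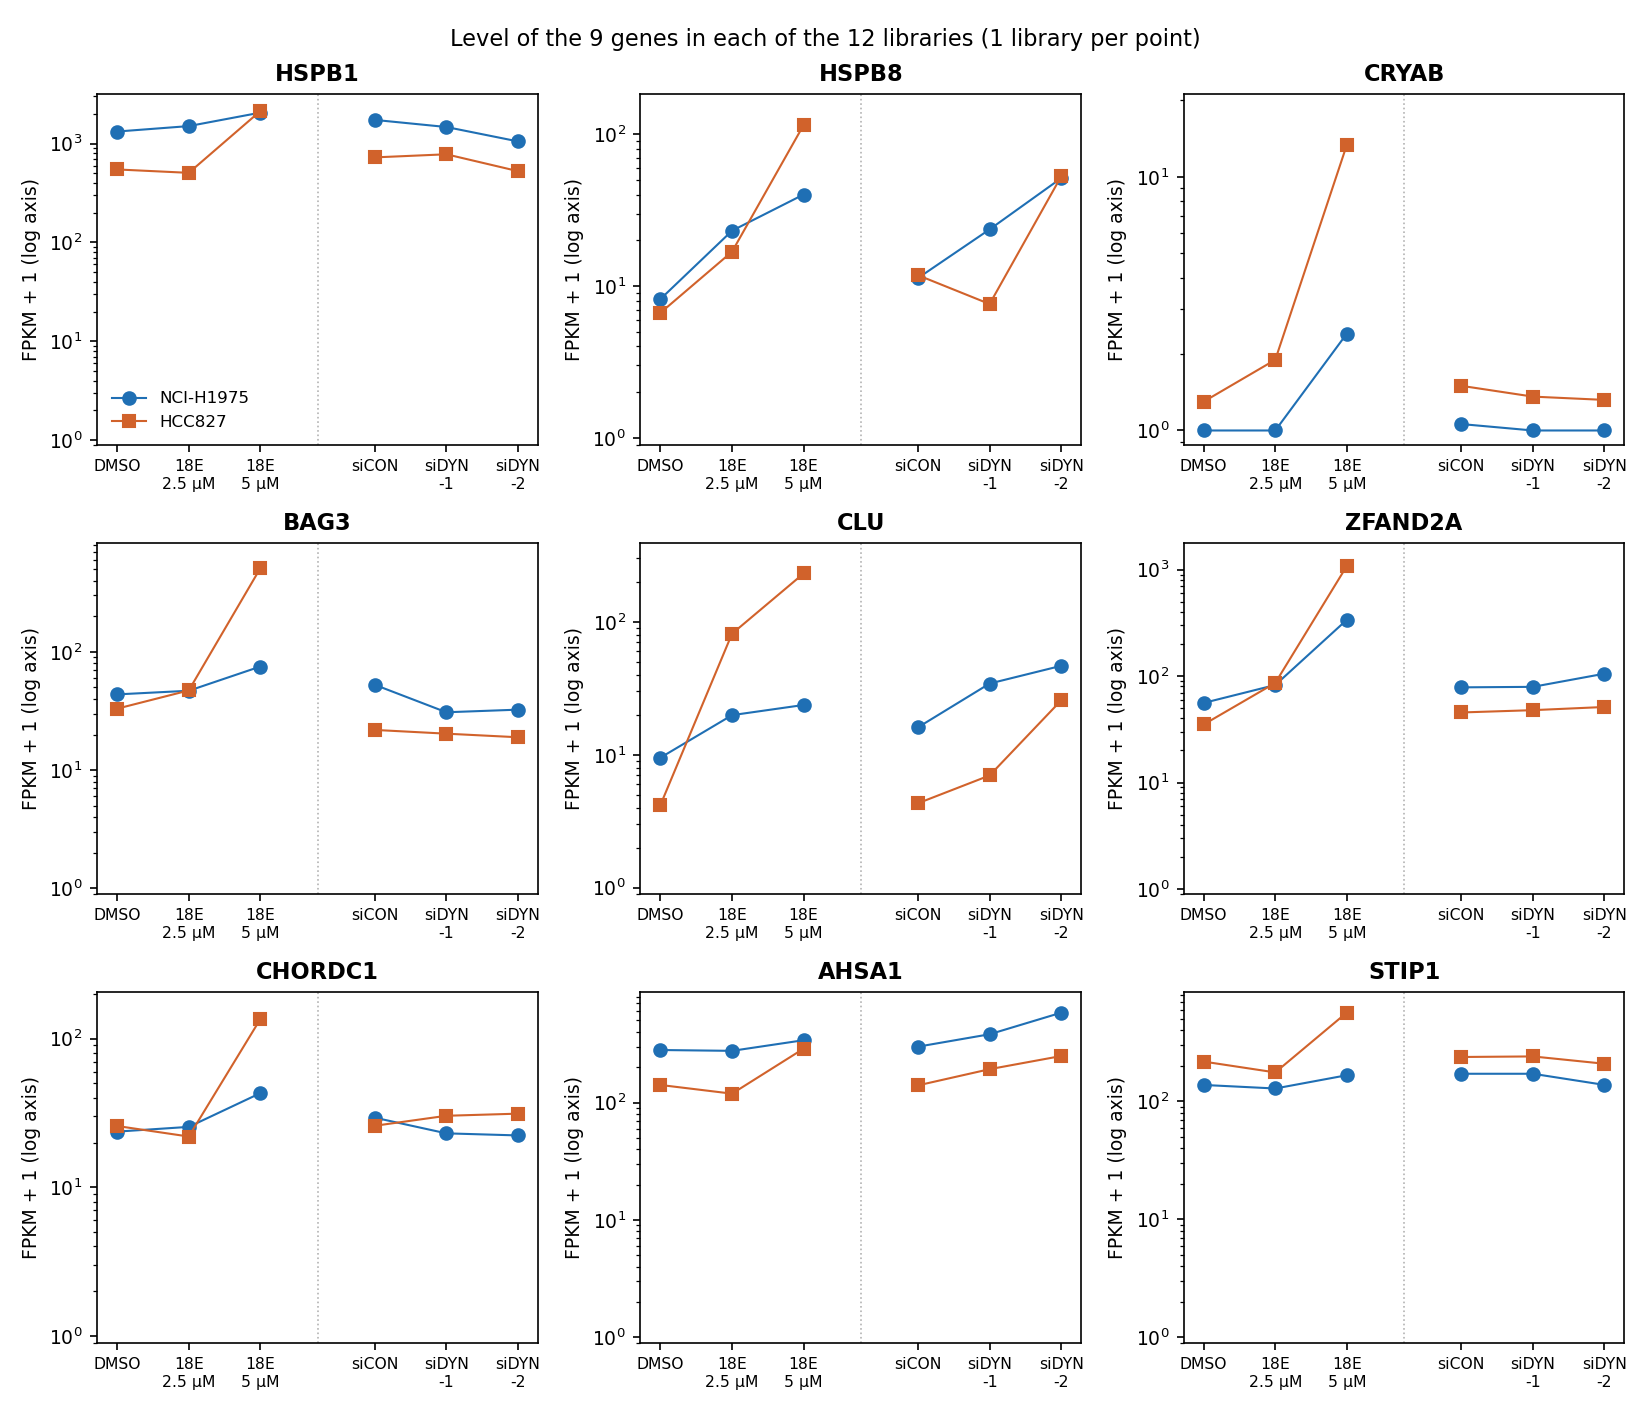
Level of each gene in each of the 12 libraries, as FPKM + 1 on a log axis, with 1 library per point and lines joining the libraries of one cell line within one experiment. The HCC827 5 µM library has the highest value of its table for 8 genes and the NCI-H1975 5 µM library for AHSA1, and HSPB8, CLU and AHSA1 are highest with siDYN-2 in each line of the siRNA experiment.

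HSPB8 (chr12:119178642-119221131, plus strand, 4 exons), the small heat shock protein that pairs with BAG3, was higher at both doses. In NCI-H1975 the DMSO, 2.5 µM and 5 µM libraries held 7.22, 22.18 and 39.1 FPKM. In HCC827 it was 5.67, 15.9 and 114 FPKM. Each 18E library exceeded both DMSO libraries, and each 5 µM library exceeded both 2.5 µM libraries. How many of all tested genes separated in this way was not computed. The fitted log2 change was 1.42 ± 0.49 (SE) at 2.5 µM and 3.20 ± 0.49 at 5 µM.

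HSPB1 (HSP27, chr7:76302544-76304295, plus strand, 3 exons) is an actin-protecting chaperone that many epithelial cells carry in bulk. It was 1323, 1502 and 2055 FPKM in NCI-H1975, against 547, 505 and 2133 FPKM in HCC827 with DMSO, 2.5 µM and 5 µM. The 2.5 µM libraries thus stayed beside their own DMSO library, at log2 changes of 0.18 and -0.11. At 5 µM the change was 0.63 in NCI-H1975 and 1.96 in HCC827, and the lines, apart by 1.27 with DMSO, ended at nearly the same level. The processed pseudogenes HSPB1P1 and HSPB1P2 share sequence with this gene and are not in the tables, so how their reads were counted is not known.

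CRYAB (alphaB-crystallin, chr11:111908565-111923722, minus strand, 5 exons), the small heat shock protein of lens and muscle, was close to undetected without 18E. In NCI-H1975 it was listed at 0 with DMSO and at 2.5 µM and was 1.41 FPKM at 5 µM. In HCC827 it was 0.30, 0.90 and 12.4 FPKM. Only the 5 µM libraries exceeded 1 FPKM, and CRYAB entered the test through them. CRYAB overlaps HSPB2 and C11orf52 on the opposite strand, and whether strand was used in counting is not given in the sources used here. C11orf52 was 3.89, 3.89 and 3.84 FPKM in NCI-H1975, against 3.47, 3.39 and 2.78 FPKM in HCC827, not higher where CRYAB was. HSPB2 and the gene model HSPB2-C11orf52, which also overlaps CRYAB, had no values in the 18E experiment. A part of their reads in the CRYAB values was not tested.

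BAG3 (chr10:119651370-119677819, plus strand, 5 exons), the HSP70 nucleotide exchange factor of chaperone-assisted autophagy, differed most between the lines at 5 µM after CLU. It was 42.7, 45.9 and 74.2 FPKM in NCI-H1975 with DMSO, 2.5 µM and 5 µM, and 32.1, 46.2 and 509 FPKM in HCC827. At 5 µM this was 1.74 times the DMSO level in NCI-H1975 and 15.9 times in HCC827. At 2.5 µM both libraries lay above their DMSO library, by 0.10 and 0.51 on the log2 scale.

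ZFAND2A (chr7:1152071-1160759, minus strand, 6 exons), an AN1 zinc finger protein tied to the proteasome, had the largest fitted change of the 9 at 5 µM, 3.77 ± 0.52. It was 54.98, 81.5 and 337 FPKM in NCI-H1975, against 34.1, 85.3 and 1083 FPKM in HCC827 with DMSO, 2.5 µM and 5 µM. The 3 groups did not overlap, and in each line the level was higher at the higher dose. As for HSPB8, the share of all tested genes with such a separation was not computed. At 5 µM ZFAND2A was exceeded in its change by 0.117% of all tested genes in NCI-H1975 and by 0.117% in HCC827.

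Clusterin (CLU, chromosome 8, 27596917 to 27615031 on GRCh38, minus strand, 9 exons) was the gene with the widest gap between the lines. The DMSO, 2.5 µM and 5 µM libraries of NCI-H1975 held 8.52, 18.9 and 22.7 FPKM. In HCC827 it was 3.20, 80.5 and 230.3 FPKM, or 25.15 and 71.96 times the DMSO level. CLU was lower in HCC827 than in NCI-H1975 without 18E and higher with it at either dose. Its change in HCC827 at 2.5 µM, 4.28 on the log2 scale, was exceeded by 0.00837% of the tested genes, that is by a single gene. On the log2 scale the 2.5 µM dose carried most of the change at 5 µM, as the step from 2.5 to 5 µM added 0.25 in NCI-H1975 and 1.51 in HCC827. In FPKM the step from 2.5 to 5 µM was the larger in HCC827 and the smaller in NCI-H1975.

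The 3 co-chaperones of HSP90 were above DMSO in both lines at the higher dose alone, and AHSA1 and STIP1 had the smallest fitted changes of the 9. CHORDC1 (morgana, chr11:90201160-90223364, minus strand, 12 exons), whose promoter held the long run of units, was 22.7, 24.5 and 41.96 FPKM in NCI-H1975, against 24.8, 20.9 and 134 FPKM in HCC827. STIP1 (HOP, chr11:64185272-64204543, plus strand, 14 exons), the adaptor between HSP70 and HSP90, was 137, 128 and 166 FPKM in NCI-H1975, against 216, 175 and 566 FPKM in HCC827. AHSA1 (AHA1, chr14:77457870-77469474, plus strand, 9 exons), the activator of the HSP90 ATPase, was 279, 275 and 339 FPKM in NCI-H1975, against 140.2, 118 and 287 FPKM in HCC827. STIP1 and AHSA1 were below DMSO in both lines at 2.5 µM, by log2 changes of -0.10 and -0.30 for STIP1 and -0.02 and -0.25 for AHSA1. At 5 µM all 3 were above DMSO in both lines, with fitted changes of 1.62 ± 0.44 for CHORDC1, 0.83 ± 0.32 for STIP1 and 0.65 ± 0.25 for AHSA1. The processed pseudogene STIP1P3 is not in the tables.

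Between the doses, every gene of the 9 was higher at 5 µM than at 2.5 µM in both lines. The share of all tested genes with this order was not computed, and their median fitted step was -0.10. The step was smallest for CLU in NCI-H1975 (0.25) and largest for ZFAND2A in HCC827 (3.65). In the direct limma contrast of the doses 0 of 9 passed (adjusted p from 0.411 to 0.655), against 0% of all genes, and 7 of the 8 other than CRYAB had an unadjusted p under 0.05, against 11.8%. HSPB8 and CLU were thus already at least 2-fold higher at 2.5 µM in both lines, ZFAND2A in HCC827 only (log2 changes of 0.56 and 1.30), and the other 6 in neither. At 5 µM the smaller of the 2 line changes was 1.27 for CRYAB, just inside the 2-fold limit of 1, and 0.86 for CHORDC1 and 0.78 for BAG3, just outside it.

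**Figure D3:**
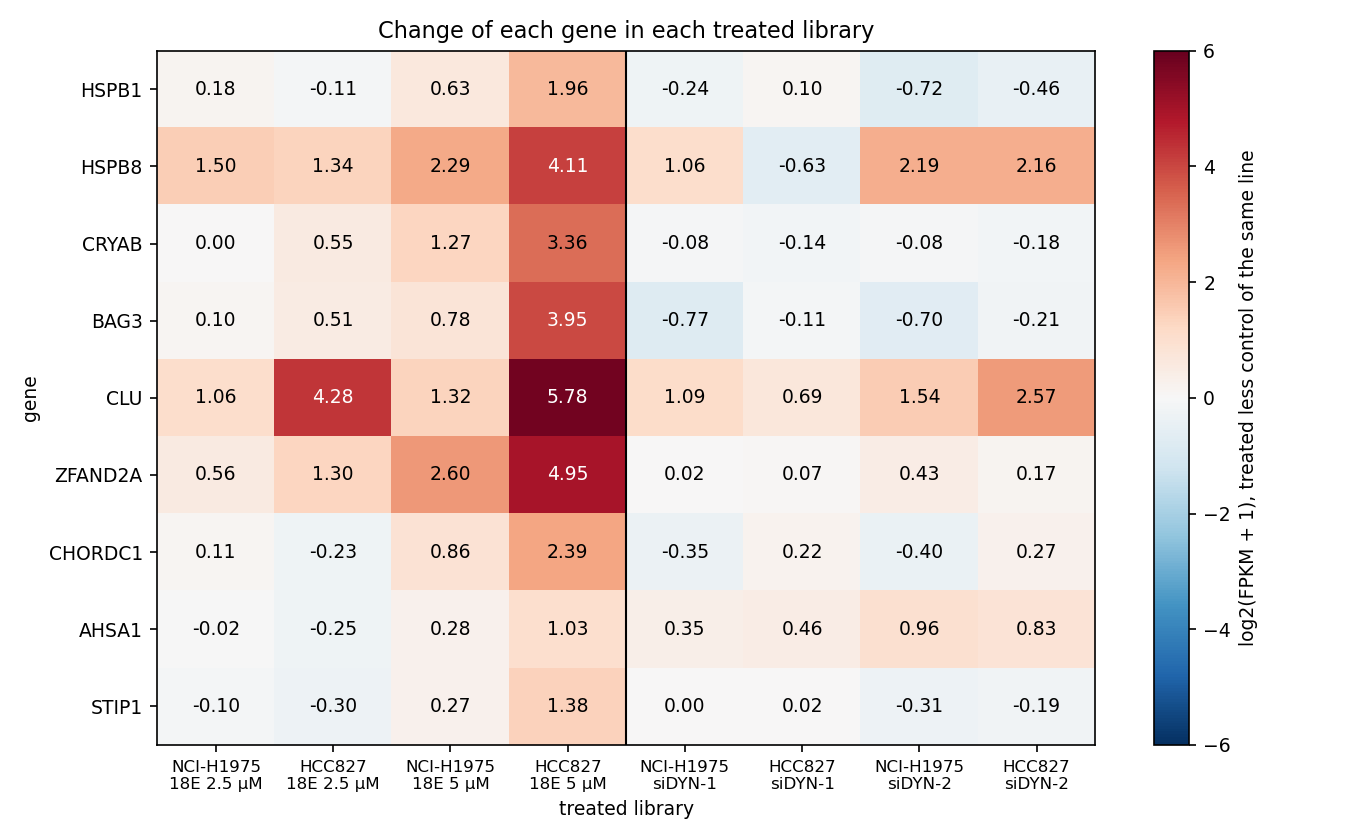
Change of each gene in each treated library, as log2(FPKM + 1) less the control of the same line and table; red is higher and blue lower, with the value printed in each cell. The 5 µM columns are positive in all 9 rows, HCC827 exceeds NCI-H1975 in each of them at that dose, and in the siDYN columns HSPB1 and BAG3 are mostly below 0 while CLU and AHSA1 are above it.

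HCC827 showed the larger change at 5 µM for all 9 genes, and the share of all tested genes with a larger change in HCC827 was not computed. The excess of HCC827 over NCI-H1975 at 5 µM ran from 0.75 (AHSA1) through 3.16 (BAG3) to 4.47 (CLU) on the log2 scale. At 2.5 µM it was 3.22 for CLU and between -0.34 and 0.74 for the other 8 genes. In the limma interaction, in which the doses stood in for replicates, 0 of 9 passed (adjusted p = 0.999 for each gene), against 0% of all genes, with the largest difference for CLU at 3.84 ± 0.87. Unadjusted p was under 0.05 for CLU alone, against 1.72% of all genes. The HCC827 5 µM library also stood further from its control across all genes, with 7.4% at least 2-fold higher and 7.24% at least 2-fold lower, against 1.78% and 1.13% in NCI-H1975. The part of this wider spread in the difference of the 9 genes was not tested.

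**Figure D4:**
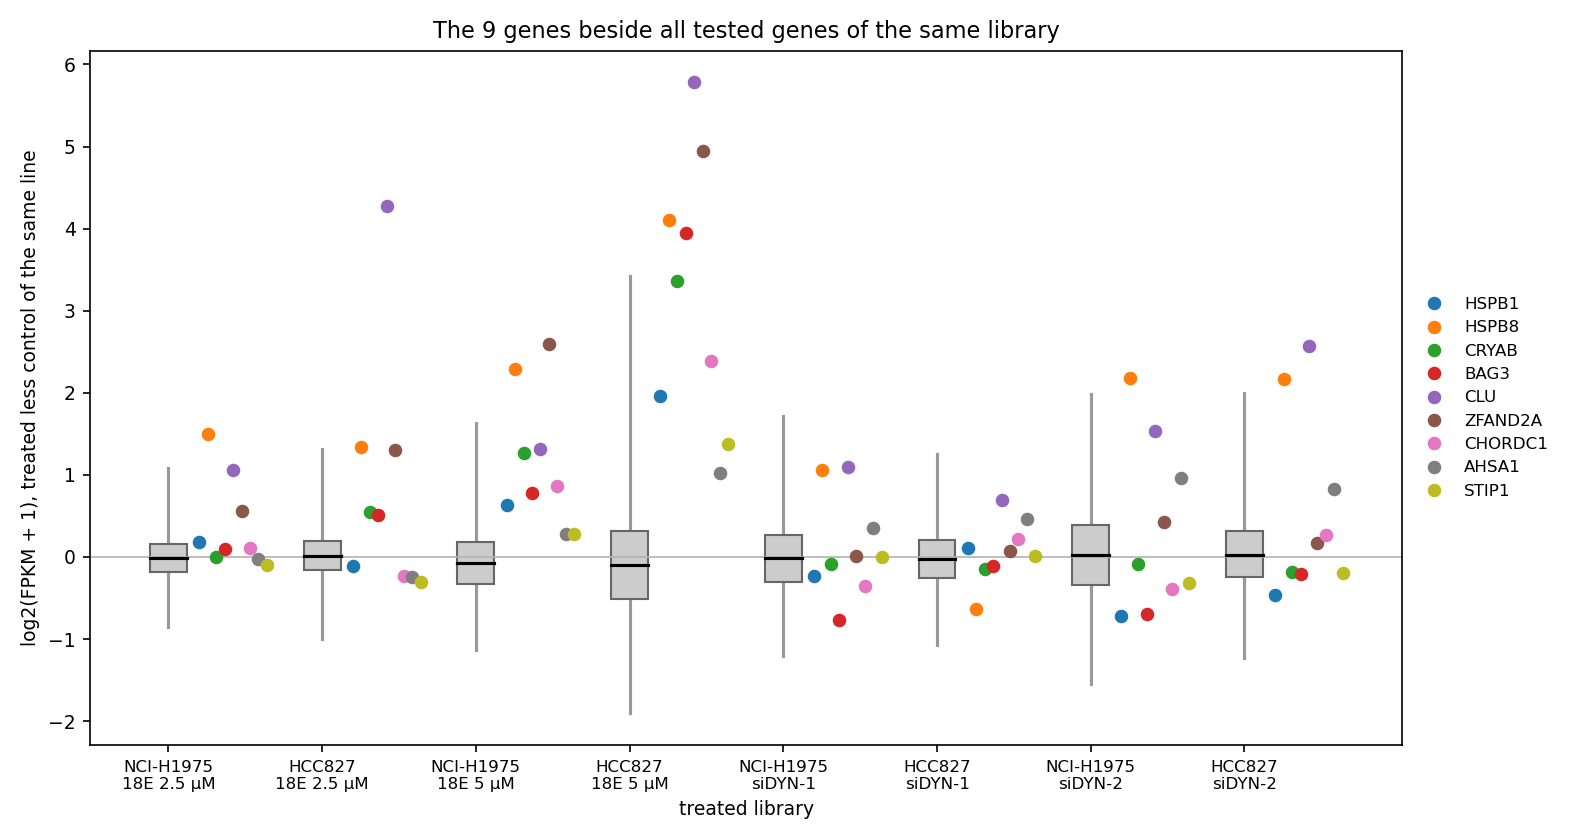
The 9 genes (coloured points) beside all tested genes in each treated library, as log2(FPKM + 1) less the control of the same line. The grey line covers the central 99% of the tested genes, the box the central 50%, and the black bar is their median. At 5 µM in HCC827 CLU, ZFAND2A, HSPB8 and BAG3 lie above the grey line and STIP1 and AHSA1 within it.

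With siDYN the 9 genes had no common direction. CLU, AHSA1 and ZFAND2A were higher than siCON in all 4 siDYN libraries, CRYAB and BAG3 were lower in all 4, and 0 of 9 were at least 2-fold higher or lower in all 4. With quantile normalization or with equal FPKM totals, ZFAND2A left the first group and HSPB1 and STIP1 joined the second. Among the 11718 tested genes, 24.9% were higher in all 4 libraries (3 of 9 here), 0.23% were at least 2-fold higher in all 4 and 0.0341% at least 2-fold lower. The share of all genes lower in all 4 was not computed. CRYAB did not pass the filter on low values in this table, at 0 to 0.50 FPKM. Its place among the lower genes rests on values that cannot be told from 0. The median fitted change of the 8 tested genes was 0.05 (-0.04 with quantile normalization, -0.06 with equal FPKM totals), against 0.01 over all tested genes. In limma 0 of 8 passed (adjusted p from 0.121 to 0.836), against 0% of all genes, and 3 (CLU, AHSA1 and BAG3) had an unadjusted p under 0.05, against 26% of all genes. With 1 library left out, given by size only, the fitted change of CLU ran from 1.05 (without HCC827 siDYN-2) to 1.85 (without HCC827 siDYN-1).

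Among the genes that were higher, CLU in NCI-H1975 was at 15.1 (siCON), 33.35 (siDYN-1) and 45.7 FPKM (siDYN-2). In HCC827 it was 3.32, 5.99 and 24.66 FPKM. Every siDYN library exceeded its own siCON library, with a fitted log2 change of 1.47 ± 0.47. AHSA1 was 298, 381 and 582 FPKM in NCI-H1975, against 139, 191 and 248 FPKM in HCC827, with a fitted change of 0.65 ± 0.20. Its fitted change at 5 µM 18E rounded to the same 0.65, and AHSA1 was higher with siDYN-2 than with siDYN-1 in both lines. ZFAND2A, which led at 5 µM 18E, was 77.4, 78.3 and 104 FPKM in NCI-H1975, against 44.5, 46.9 and 50.3 FPKM in HCC827, a fitted change of 0.17 ± 0.15. AHSA1 and VIPAS39 share 83 bases on opposite strands, and VIPAS39 was 12.3, 13.9 and 16.1 FPKM in NCI-H1975, and in HCC827 5.40, 8.18 and 8.41 FPKM, much below AHSA1.

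The small heat shock proteins differed among themselves with siDYN. HSPB8 was 10.3, 22.65 and 50.45 FPKM in NCI-H1975 with siCON, siDYN-1 and siDYN-2, and 10.8, 6.62 and 51.8 FPKM in HCC827. The siDYN-2 libraries stood at 4.89 and 4.80 times their siCON library, and the siDYN-1 libraries lay on either side of theirs, so the fitted change over both siRNAs was 1.20 ± 0.74. HSPB1 was 1734, 1470.2 and 1051 FPKM in NCI-H1975, against 724, 779 and 526 FPKM in HCC827, and both siDYN-2 libraries were below siCON, at log2 changes of -0.72 and -0.46. CRYAB was 0.06, 0 and 0 FPKM in NCI-H1975, against 0.50, 0.36 and 0.32 FPKM in HCC827.

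BAG3 and the HSP90 co-chaperones CHORDC1 and STIP1 lay at or below siCON in at least 1 line with siDYN-2. BAG3 was 51.7, 29.9 and 31.5 FPKM in NCI-H1975, against 20.9, 19.3 and 17.97 FPKM in HCC827, a fitted change of -0.44 ± 0.17. The libraries of NCI-H1975 were further below siCON, at -0.77 and -0.70 against -0.11 and -0.21 in HCC827. CHORDC1 was 28.4, 22.05 and 21.3 FPKM in NCI-H1975, against 24.9, 29.3 and 30.3 FPKM in HCC827, lower in one line and higher in the other. STIP1 was 170.5, 170.5 and 137 FPKM in NCI-H1975, against 237, 239.6 and 208 FPKM in HCC827, with log2 changes of 0.00 and 0.02 for siDYN-1 and -0.31 and -0.19 for siDYN-2. The interaction of line and siDYN passed for 0 of 8 genes in limma (adjusted p = 1.00 for each), against 0% of all genes, and 0 of 8 had an unadjusted p under 0.05, against 1.52%.

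The 2 siRNAs gave unlike values for several of the genes, and a fit with each as its own group was added after the values were seen. With siDYN-2, 4 of 8 genes passed limma, where 18.1% of all genes did, and 5 had an unadjusted p under 0.05, against 38.4%. HSPB8 rose by 2.17 ± 0.41 (limma adjusted p = 0.024), CLU by 2.05 ± 0.32 (adjusted p = 0.020) and AHSA1 by 0.89 ± 0.12 (adjusted p = 0.018), in 2 of 2 lines each, where 10.3% of all genes were called higher. HSPB1 fell by 0.59 ± 0.13 in both lines (adjusted p = 0.031), where 7.81% of all genes were called lower. With siDYN-1, 0 of 8 passed, where 0.7% of all genes did (limma adjusted p from 0.106 to 0.972), and 2 had an unadjusted p under 0.05, against 27.2%. In the direct limma contrast of the siRNAs 0 of 8 passed, where 0.606% of all genes did (0.393% higher), and 4 had an unadjusted p under 0.05, against 20.9%, with HSPB8 higher in siDYN-2 by 1.96 ± 0.41 (adjusted p = 0.079). DYNC1LI1 was lower with siDYN-2 than with siDYN-1 in both lines, at 12.8% against 21.5% of siCON in NCI-H1975 and 7.49% against 14.9% in HCC827.

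Set side by side, each experiment against its own controls, the fitted changes had the same sign for some genes and not for others. CLU, HSPB8 and AHSA1 had positive fitted changes at 5 µM 18E (3.55, 3.20 and 0.65). In the added fit they were 2.05, 2.17 and 0.89 with siDYN-2, and 0.89, 0.22 and 0.40 with siDYN-1. The siDYN-1 libraries of HSPB8 lay on either side of siCON. HSPB1 was positive at 5 µM (1.30 ± 0.38), negative with siDYN-2 (-0.59) and -0.07 with siDYN-1. BAG3 was 2.36 ± 0.74 at 5 µM and -0.44 ± 0.17 with both siRNAs as 1 group, and STIP1 was 0.83 and -0.12. With siDYN-2 and siDYN-1 apart, BAG3 was -0.45 and -0.44, and STIP1 -0.25 and 0.01. No test of the difference between the experiments was made, since the 2 tables were fitted apart.

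At 5 µM the large chaperones were higher than DMSO in 16 of 16 genes in HCC827 (14 at least 2-fold) and in 13 of 16 in NCI-H1975, where 3 were lower and 4 at least 2-fold higher. All 15 tested had positive fitted changes, with a median of 1.18 (13 of 15 with equal FPKM totals, where HSPA4 and HSPE1 were negative, and 14 with quantile normalization). HSPA6, an HSP70 with little expression before stress, had 1.30 FPKM (DMSO) and 104 FPKM (5 µM) in NCI-H1975, while HCC827 had 0.60 and 1337 FPKM. HSPA1A, HSPA1B and HSPH1 followed with fitted changes of 3.36 ± 0.52, 3.41 ± 0.57 and 2.34 ± 0.59, and HSPA1A and HSPA1B are near-identical copies whose reads the counting could divide. At 2.5 µM 11 of the 15 had negative fitted changes (median -0.19). In HCC827 2 of 16 were nevertheless at least 2-fold higher at that dose (1.24% of all genes), with the largest log2 change at 4.82. In NCI-H1975 0 of 16 were (0.678% of all genes). With siDYN the median fitted change was -0.07. In limma 0 of the 15 passed at 5 µM, 2.5 µM or siDYN, and 9, 1 and 4 of them had an unadjusted p under 0.05, against 26.8%, 5.26% and 26% of all genes.

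The lists of related genes in this paragraph had medians between -0.12 and 0.31 at 5 µM. The 23 tested of 24 other HSP90 co-chaperones had a median of 0.16 at 5 µM, with 16 positive and 7 negative (14 and 9 with equal FPKM totals), led by CACYBP (0.98 ± 0.37) and FKBP4 (0.83 ± 0.30), an immunophilin. The 5 other BAG genes had a median of 0.04 (-0.05 with equal FPKM totals), with BAG1 at 0.65 ± 0.21. All 6 other ZFAND genes were positive with a median of 0.31 (with equal FPKM totals ZFAND4 was negative), led by ZFAND2B at 0.67 ± 0.22, against 3.77 for ZFAND2A. Of 8 other small heat shock proteins only HSPB11 passed the filter on low values, at 0.09 ± 0.16 (-0.02 with equal FPKM totals). Of 4 tested genes among the heat shock factors and HSBP1, which binds HSF1, 3 were negative (median -0.12): HSF2 was 0.73 ± 0.32 and HSF1, the main stress factor, -0.10 ± 0.15. In limma 0 of these genes passed at 5 µM, 2.5 µM or siDYN, and at 5 µM 5 of 23 co-chaperones, 1 of 5 BAG genes and 2 of 6 ZFAND genes had an unadjusted p under 0.05, shares near the 26.8% of all genes.

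Among 8 tested partners of BAG3 in autophagy, the median was 0.41 at 5 µM, with 5 positive and 3 negative (6 and 2 with quantile normalization, 4 and 4 with equal FPKM totals). SQSTM1 (p62), the autophagy receptor, was 171, 422 and 549 FPKM in NCI-H1975, against 121, 433 and 1087 FPKM in HCC827, above DMSO at both doses in both lines (fitted change 1.57 ± 0.34 at 2.5 µM, limma adjusted p = 0.915). It was also above siCON in all 4 siDYN libraries, with a fitted change of 0.79 ± 0.15 for siDYN-2 (limma adjusted p = 0.027). Of 4 tested extracellular chaperones and clusterin receptors 3 were negative at 5 µM (median -0.54), with the receptors LRP8 and VLDLR at -0.79 ± 0.22 and -0.77 ± 0.23. LRP8 fell with siDYN-2, by 0.75 ± 0.17 (limma adjusted p = 0.035). In siDYN-2 the large chaperones had 3 genes called higher (DNAJA1, HSPE1 and SERPINH1) and 2 lower (HSPA4L and HSP90AA1) of 15, in the fit that was added, where 10.3% of all genes were called higher and 7.81% lower. In the same fit 1 of the 23 other co-chaperones, NUDC, was called higher. That fit was run under no other setting.

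**Figure D5:**
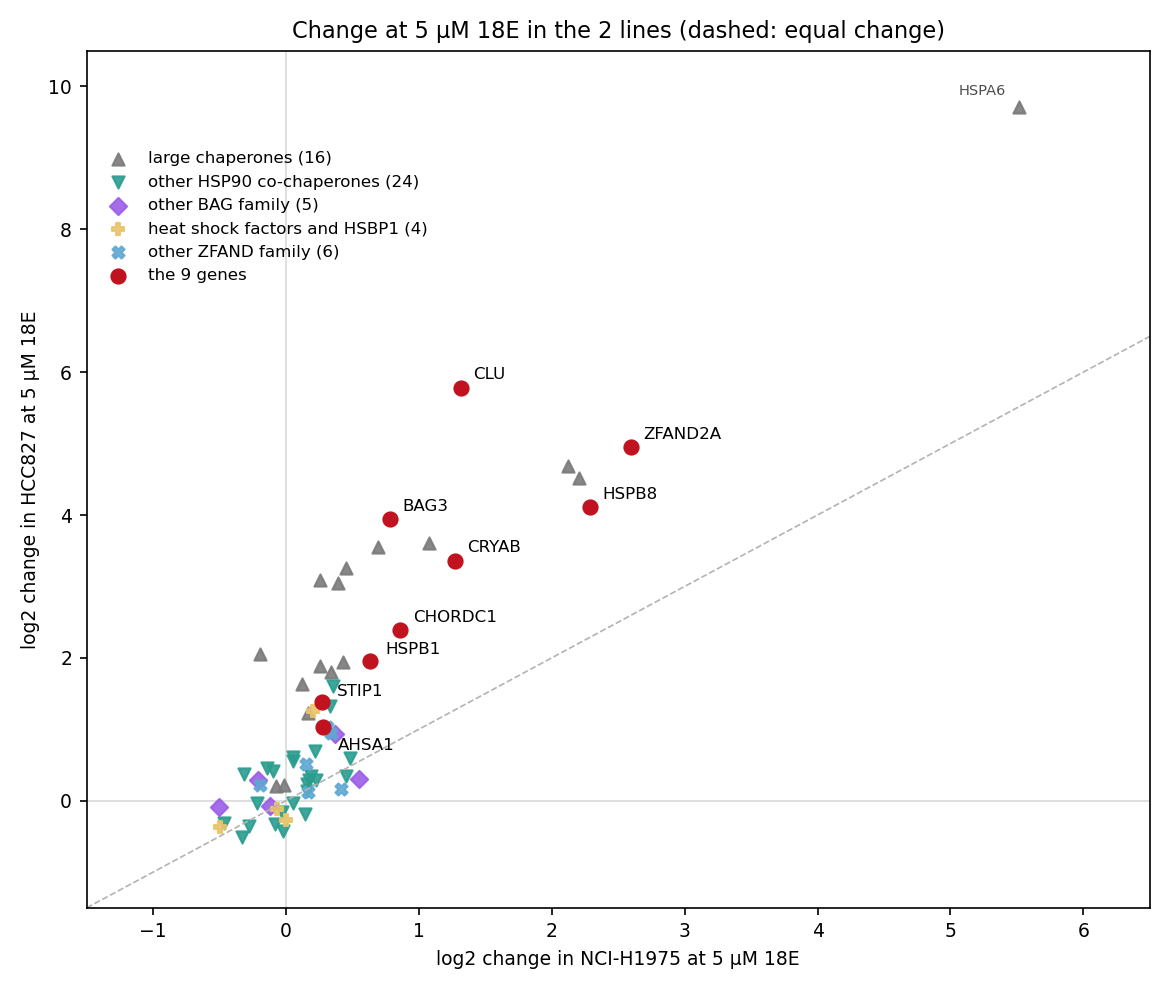
Change at 5 µM 18E in HCC827 against NCI-H1975, in log2(FPKM + 1), for the 9 genes and 5 lists of related genes, with the number of genes of each list in the table; the dashed line marks equal change. All 9 genes lie above the dashed line, with CLU and BAG3 farthest from it, and HSPA6 exceeds them in both lines.

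Likeness was measured as Pearson's r of the log2 changes over the 8 treated libraries, which share 4 controls and include the widely changed HCC827 5 µM library, so r is a description with no p. The values in parentheses are without that library. STIP1 was most like HSPD1 (0.988, 0.913 in 7 libraries), HSP90AA1 (0.988, 0.933) and CACYBP (0.987, 0.906), mitochondrial and cytosolic chaperones and a co-chaperone, out of 11448 genes compared. Only STIP1 had genes of the lists above among its 3 most alike, and the other genes had none. ZFAND2A was most like HBEGF (0.993, 0.986), CLU most like CHD2 (0.988, 0.970) and BAG3 most like THAP1 (0.995, 0.968). CHORDC1 was most like SPTY2D1 (0.994, 0.972), HSPB1 most like EIF2AK3 (0.976, 0.926), HSPB8 most like ULBP3 (0.977, 0.954) and AHSA1 most like ATP6V0D1 (0.962, 0.956). Among the 8 genes other than CRYAB, whose low values leave it out here, BAG3 and ZFAND2A had the most alike changes (0.957, 0.833), while AHSA1 reached at most 0.487 (with HSPB8). The likeness of HSPB1 to HSPB8 (0.559) became -0.166 without the HCC827 5 µM library, and that of CLU to STIP1 went from 0.599 to -0.580.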

How the data were processed

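RNA sequencing was measured in 12 libraries, 1 per cell line and treatment. The authors deposited FPKM values with 2 decimals in 1 table per experiment, per the file headers. Bowtie 0.12.2 and the builds mm8 (mouse) and GRCh38.p12 (human) are named without a role, per the submitters' processing notes, while no source used here gives the counting tool, its annotation or its use of strand. Read totals are unknown, since low values did not show whole-read steps, and this limits the precision of low genes. Incomplete lines (20 genes and 20 spilled lines in the 18E table, 20 spilled lines in the siRNA table) were left out, and 0 columns were unmatched.

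Values were taken as log2(FPKM + 1). Genes at 1 FPKM or more in at least 2 of the 6 libraries of a table were tested with limma 3.58.1 (R 4.3.3), two-sided, with a variance trend, line as a block and Benjamini-Hochberg adjustment over all tested genes, called at 0.05. With 1 library per line and treatment the lines were the replicates: the shared numbers name the same cell line in each group, so the block is part of the design. The fits were tested on simulated data. The members and lists were chosen with earlier results of these data known. Named list genes were up to 4 per comparison with the largest fitted change, and the 3 genes most like each member by Pearson's r were ranked, of which mainly the first is named. Positions are from GENCODE 29 on GRCh38 and promoter sequences from RefSeq on GRCh38.p14. Alternatives were a pseudocount of 0.1, no filter, quantile normalization, equal FPKM totals, no trend, no line block, each library left out, and single siRNAs.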

Additional observations from a re-analysis of the deposited data

Results flagged for a closer look

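CHORDC1 had opposite signs in the lines with siDYN. Both siRNA libraries were below siCON in NCI-H1975 (log2 changes of -0.35 and -0.40) and both were above it in HCC827 (0.22 and 0.27), a difference between the lines of 0.62 ± 0.29 (SE). In the limma interaction, in which the siRNAs stood in for replicates, this did not pass (adjusted p = 1.00). The CHORDC1 levels of the 2 siCON libraries were 28.4 and 24.9 FPKM, and 1 library stands behind each value.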

How the results depend on the processing

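The count of all genes called depended on single settings. At 5 µM limma called 1 gene, but 16 with a pseudocount of 0.1, 0 with no filter, quantile normalization, equal FPKM totals, no trend or no replicate block, and from 34 to 4520 when 1 library was left out. At 2.5 µM it called 0 genes, and from 0 to 26 with 1 library left out. For siDYN it called 0, from 0 to 128 with 1 library left out, 82 for siDYN-1 as its own group and 2124 for siDYN-2. The cause was not tested, except that leaving out a library also leaves fewer residual degrees of freedom and assumes that the lone sample varies like the others. Of the 9 genes, those at least 2-fold higher in every treated library were 4 at 5 µM (4 to 9 with 1 library left out), 2 at 2.5 µM (1 with equal FPKM totals, 2 to 3 with 1 library left out) and 0 for siDYN (0 to 2 with 1 library left out). With a library left out the rule has no more libraries to meet, so these counts could only stay or rise. The median change of the 9 genes was 2.32 at 5 µM (0.89 to 3.23 with 1 library left out), 0.27 at 2.5 µM (-0.28 to 0.93) and -0.06 for siDYN (-0.10 to 0.12), CRYAB included. Without the replicate block 0 of the 9 passed in any of the 3 comparisons, as with it. Single-gene changes at 5 µM had 0 changes of sign in 90 recomputed values. Those without the line block or without a 2.5 µM library could not move, as this balanced design returns the main value. The sizes moved with another library left out: AHSA1 from 0.22 to 1.08, STIP1 from 0.22 to 1.43, BAG3 from 0.89 to 3.84 and CLU from 1.63 to 5.47. CRYAB was 4.44 with a pseudocount of 0.1. At 2.5 µM 12 of 90 changed sign, where the values without the line block or without a 5 µM library likewise could not move. For siDYN 2 of 108 did, where those without the line block could not move. With unknown depth, values of CRYAB under 1 FPKM cannot be told from 0.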
